A study of Homo sapiens with 6 samples.

Results

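The genes described here are 35 MYC targets and ribosome biogenesis genes, a list named for its members' known functions. It holds MYC and its partner MAX, genes that make and modify ribosomal RNA, genes that assemble both ribosomal subunits, and enzymes of nucleotide and polyamine synthesis. A member was measured where the array had a probe set annotated to that gene alone, and where a gene had several, the probe set with the highest mean signal was used. This held for 29 of the 35 members, and all 29 were among the 13036 genes tested. DKC1, NOP56, GNL3, PPAN, BOP1 and DDX18 had no such probe set and are not analysed here. Each of the 29 genes read above the filter on dim signals, a log2 signal of 6.21, on all 6 arrays, so none entered the test through 1 group alone.

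MYC is a transcription factor that pairs with MAX and binds a short DNA word, the E-box, near the start of many genes. Ribosome biogenesis genes are its best known targets: they act mostly in the nucleolus, where RNA polymerase I transcribes ribosomal RNA, small nucleolar ribonucleoproteins (snoRNPs) guide its modification, and assembly factors build the small and large subunits. Growing lymphoma cells make many ribosomes, and their nucleotide and polyamine synthesis is also under the control of MYC.

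The study measured RNA on 6 Affymetrix expression arrays in 2 established human lines of diffuse large B-cell lymphoma, KARPAS-422 and Pfeiffer. Cells of both lines received lentivirus in the presence of polybrene at 8 µg/ml, then puromycin at 1 µg/ml for 2 days from the second day on, in medium with 10% serum. The virus carried either shEZH2, a hairpin against EZH2, or shNTC, a hairpin with no target in mammals, and the labels give 10 days of treatment. EZH2 is the histone H3 methyltransferase of Polycomb repressive complex 2, and the comparison asks what its knockdown does to gene expression in each line. KARPAS-422 had 2 arrays per hairpin and Pfeiffer had 1. Each hairpin arm rests on 1 hairpin sequence, so an effect of EZH2 loss and an effect of that sequence on other transcripts cannot be told apart. The KARPAS-422 arrays are labelled as biological replicates without a word on separate infections. A p-value here therefore covers the spread between these arrays only, which may be technical.

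The hairpins are shown because every comparison of arms rests on them. They are written as the labels give them, 5′ to 3′, with the 21-base sense arm in capitals and the 6-base loop and the antisense arm after it.
shControl (shNTC): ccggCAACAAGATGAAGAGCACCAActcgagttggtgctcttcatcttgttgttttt
shEZH2: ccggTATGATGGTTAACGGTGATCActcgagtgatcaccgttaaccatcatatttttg

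All values below are log2 signals, and differences are shEZH2 minus shNTC unless said otherwise, so a difference of 1 is a doubling. EZH2 itself was lower with its hairpin in both lines, at 11.71 and 11.58 against 10.52 and 10.55 in KARPAS-422 and 11.65 against 10.24 in Pfeiffer. B cell identity was checked with 12 marker genes, of which 11 had a single-gene probe set: 11 read above the median of all values on each KARPAS-422 array and 10 on each Pfeiffer array. T and NK cell markers were above it for 2 to 4 of 12 genes, myeloid markers for 0 to 3 of 8, and fibroblast and epithelial markers for 3 to 6 of 11. Of the T cell markers, CD3D and CD3G were bright in KARPAS-422 and fell there with shEZH2, by 0.77 and 0.64 (limma adjusted p = 0.00943 and 0.0417). The log2 summed signal of the T and NK list was 12.68 and 12.81 against 12.15 and 12.00 in that line. The ACTB control probe sets, a measure of RNA integrity, gave a 3′ minus 5′ log2 difference of 0.0593 and 0.0830 with shNTC and 0.138 and 0.175 with shEZH2 in KARPAS-422, and 0.109 against 0.126 in Pfeiffer. The part of either in the results below was not tested.

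The E-box word CACGTG was common near the start sites of the list's genes. Windows of 300 bases, 250 before and 50 after the start site, came from RefSeq (GRCh38.p14) and held 24 of the 29 measured genes. The word reads the same on both strands. It was in 13 of these 24 windows (54.2%), against 10.1% of the 10536 windows of tested genes and 7.26% of all 35116 windows in the table. In 10 of 24 (41.7%) it lay within the first 50 bases from the start site on, where 1.26% of the windows of tested genes had it. In 3 of 24 (12.5%) it lay wholly in the 250 bases before, close to the 8.73% of tested genes. The list was drawn up as MYC targets, so this is a property of the list and not a test of it. Of the 16 windows of genes called lower with shEZH2 in KARPAS-422, as described below, 7 held the word (43.8%). Of the 8 windows of genes not called lower, 6 held it (75%). All of these 8 genes but MAX and NOL6 also had every shEZH2 array below every shNTC array in that line. A related word, CACGCG or its reverse complement CGCGTG, was in 6 of 24 windows (25%) against 17.7% of tested genes. MYC, NOP58, NOLC1, RRS1 and RRP12 had no window.

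The stretches around the word are shown for 4 genes that fell in KARPAS-422 under both scalings used here. They had the largest falls on the deposited values among 7 such genes with the word. The stretches of NOL6 and RRP9, which were not called lower, follow so that both kinds can be set side by side. RRP9 still read lower there (-0.18), without overlap of arms. Each is on GRCh38.p14, printed 5′ to 3′ on the gene's own strand with the word in capitals. The position of its first base counts the start site as +1, with no position 0.
MRTO4 (chr1:19251807-19251836, plus strand, position +15): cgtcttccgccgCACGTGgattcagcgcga
NME1 (chr17:51153581-51153608, plus strand, position +35): agtgctgcgaacCACGTGggtcccgggc
FBL (chr19:39846356-39846385, minus strand, position +7): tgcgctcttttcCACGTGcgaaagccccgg
BYSL (chr6:41921515-41921544, plus strand, position +29): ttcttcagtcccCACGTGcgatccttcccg
NOL6 (chr9:33473894-33473923, minus strand, position +14): ggcatttccgccCACGTGggaagctatgag
RRP9 (chr3:51941892-51941921, minus strand, position -5): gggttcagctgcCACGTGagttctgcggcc

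In KARPAS-422, 17 of the 29 genes fell with shEZH2 and 0 rose (limma, adjusted p under 0.05 over all genes tested). Over all 13036 genes, 12.3% fell and 13.1% rose. The median difference of the 29 genes was -0.35, against -0.02 for all genes tested. The listed genes are brighter than most: among the 2752 genes with a mean signal between their quartiles (10.82 to 12.78), 27.9% fell, with a median of -0.14. The differences were moderate: the largest fall, in PA2G4, left 56.7% of the control signal, and the smallest fall that passed, in NPM1, left 81.0%. At an unadjusted p under 0.05, 21 were lower and 1 was higher. The share of all genes at an unadjusted threshold is not given, here or below, so such counts have no background. All shEZH2 arrays lay below all shNTC arrays for 26 of 29 genes, where 33.9% of all genes did so, and above them for MAX, where 31.8% did. Arms overlapped for RRP12 and NOL6. The count rests on both shEZH2 arrays, since 6 genes fell without replicate 1 of that arm (4.12% of all genes) and 4 without replicate 2 (3.21%). It also rests on the trend of the variance with signal in the limma fit, since 1 gene fell without it (1.03%).

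**Figure D1:**
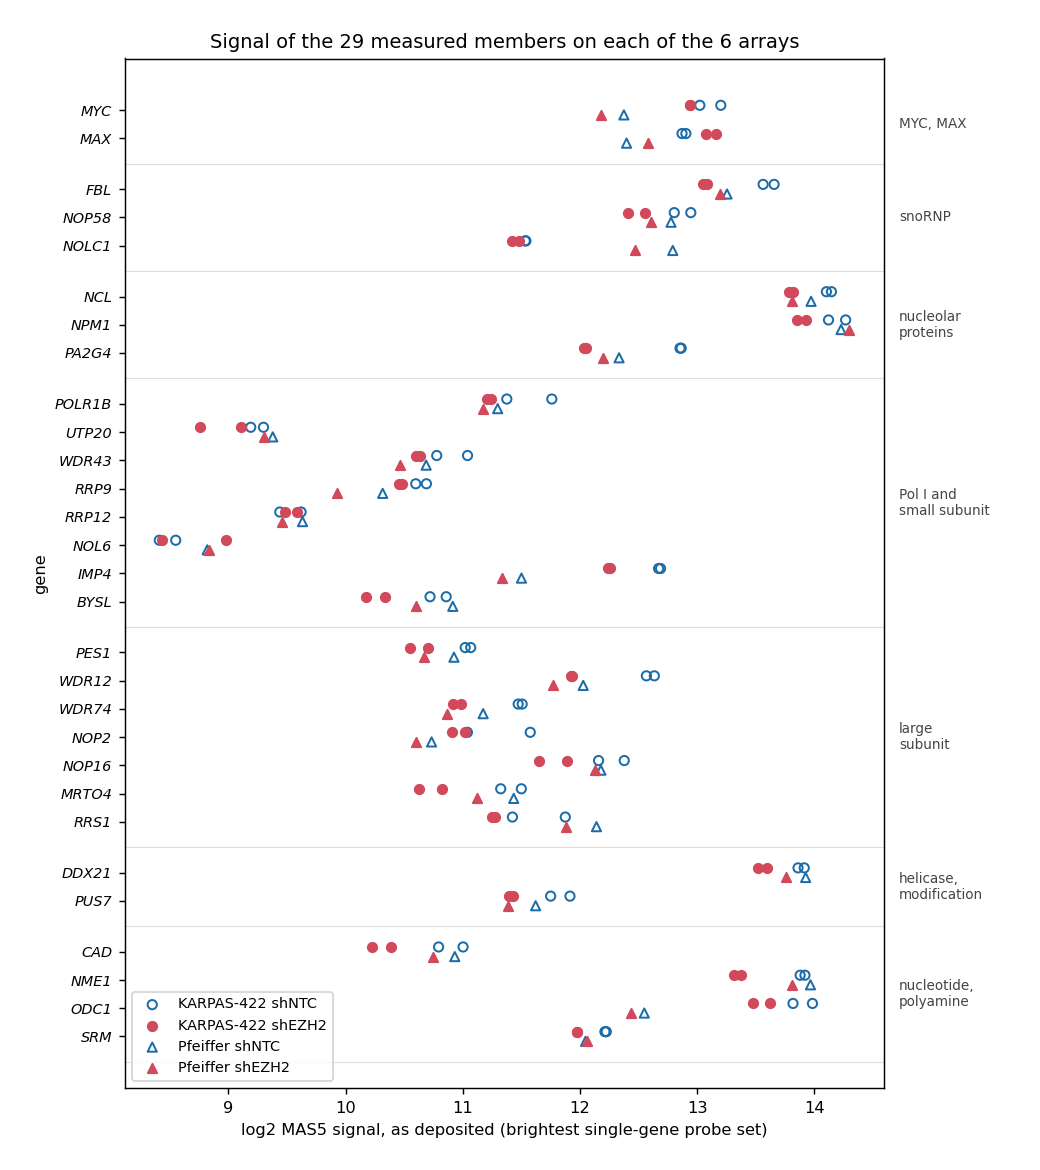
Log2 signal of the 29 measured genes on each of the 6 arrays, with genes ordered by role, symbols for the hairpin and the line, and 1 point per array. The shEZH2 points of KARPAS-422 lie below its shNTC points for 26 genes and above them for MAX, and RRP12 and NOL6 overlap.

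The size of the fall depended on how arrays were scaled. The deposited values are scaled to a common mean on each array, and cyclic loess, a smoothing between pairs of arrays that removes differences that vary with brightness, was applied as a second scaling. After it 11 of 29 genes fell and 1 rose, where 9.16% of all genes fell and 12.2% rose, and the median difference was -0.28 against -0.03 for all genes. Among the 2752 genes of like brightness 17.8% fell, with a median of -0.04. The 11 were FBL, PA2G4, IMP4, BYSL, PES1, WDR12, WDR74, MRTO4, PUS7, CAD and NME1. NOP58, NCL, NPM1, NOP16, DDX21 and ODC1 passed on the deposited values only, and MAX rose after cyclic loess only. Arms were free of overlap, with shEZH2 below, for 21 of 29 genes (33.8% of all genes), and with shEZH2 above for MAX (30.7%).

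Brightness set the 2 scalings apart. A bound of log2 13 on the mean signal, chosen after the values were seen, divided the 29 genes into 6 bright ones (FBL, NCL, NPM1, DDX21, NME1 and ODC1) and 23 others. The median difference of the 6 bright genes was -0.34 as deposited and -0.07 after cyclic loess, and the number that fell went from 6 to 2. For the other 23 genes it was -0.39 and -0.30, and the number that fell went from 11 to 9. The 449 tested genes above the bound went from a median of -0.26 to 0.02, with 224 (49.9%) and then 31 (6.9%) lower. The 12587 at or below it had medians of 0.00 and -0.04, with 11% and 9.24% lower. Of the 6 bright genes, NCL, NPM1, DDX21 and ODC1 differed by -0.35 to -0.30 as deposited, and FBL and NME1, at -0.54 and -0.55, also passed after cyclic loess.

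**Figure D2:**
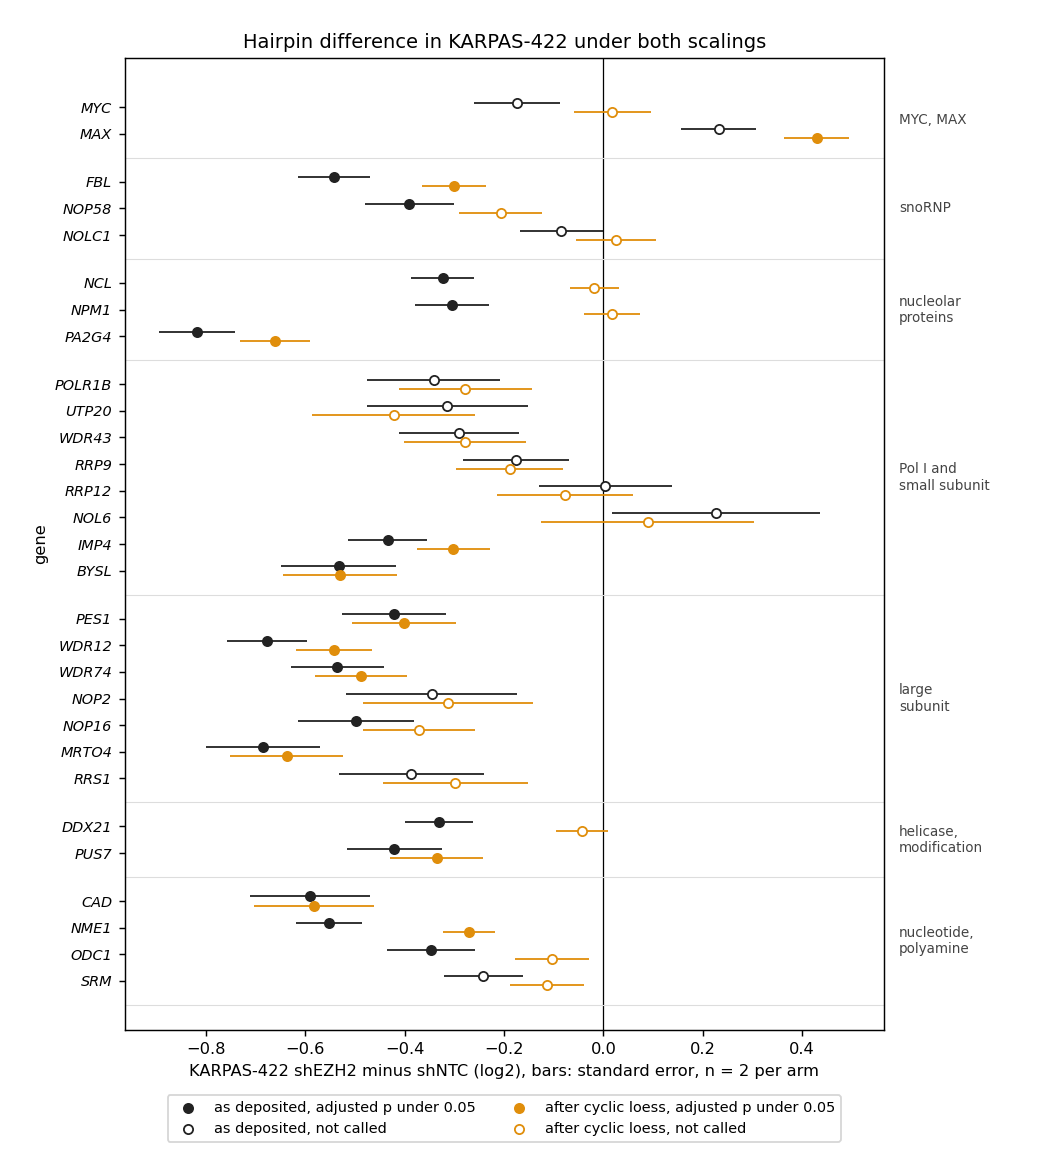
Difference between shEZH2 and shNTC in KARPAS-422 (log2) for each gene on the deposited values (black) and after cyclic loess (orange), with the standard error as bars, 2 arrays per arm, and filled symbols at an adjusted p under 0.05. PA2G4 has the largest fall under both scalings (-0.82 and -0.66), and NCL, NPM1 and DDX21 move to near 0 on the probe sets used.

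**Figure D3:**
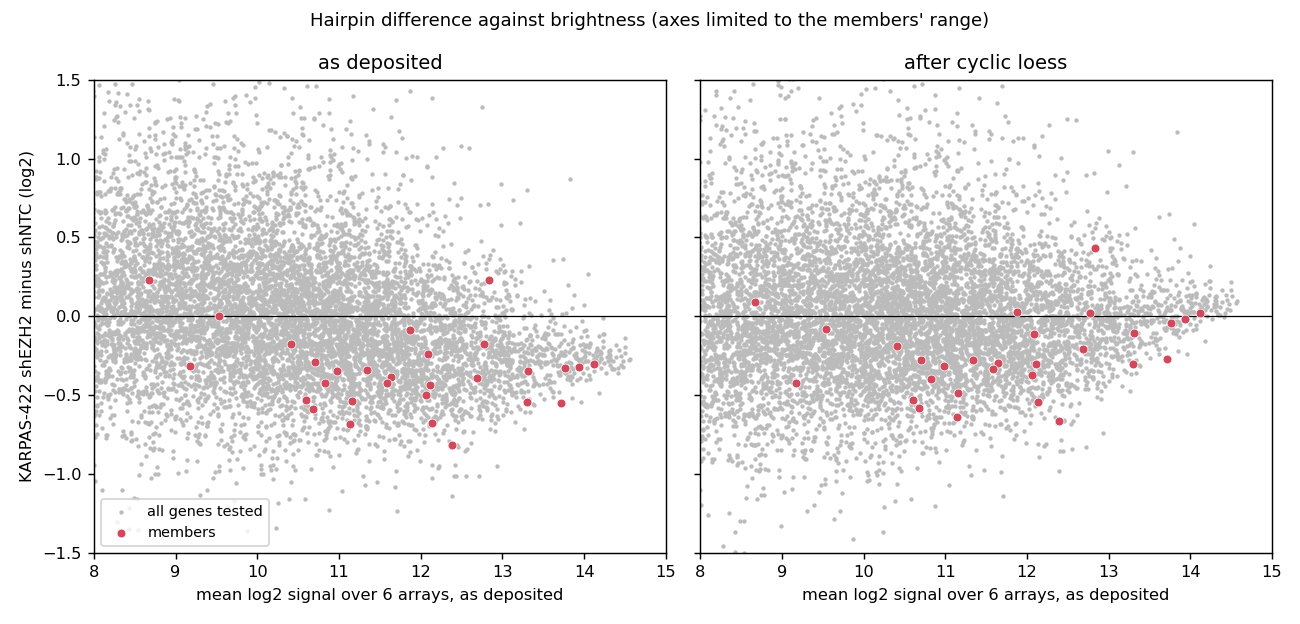
Difference between shEZH2 and shNTC in KARPAS-422 (log2) against the mean log2 signal of each gene over 6 arrays, on the deposited values and after cyclic loess, with the listed genes in red over all tested genes in grey. Above log2 13 the tested genes have a median of -0.26 as deposited and 0.02 after cyclic loess. Both axes are limited to the range of the listed genes, and some other genes lie outside.

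Neither MYC nor MAX passed the test as lower. MYC read 13.20 and 13.02 with shNTC and 12.94 and 12.94 with shEZH2 in KARPAS-422, a difference of -0.17 (SE 0.09, adjusted p = 0.177, with 2 arrays per arm here and in all KARPAS-422 comparisons) on the deposited values and 0.02 (adjusted p = 0.887) after cyclic loess. The arms did not overlap as deposited, and overlapped after cyclic loess. The gene's transcript level is one measure of MYC among others, and protein was not measured. MAX, the DNA-binding partner of MYC and of the MXD repressors, read 12.90 and 12.87 against 13.16 and 13.08. Its difference of 0.23 (SE 0.08) missed the threshold on the deposited values (adjusted p = 0.0612) and passed after cyclic loess at 0.43 (SE 0.07, adjusted p = 0.00636). Of its 5 probe sets, 4 had both shEZH2 arrays above both shNTC arrays, with differences of 0.23 to 0.40, and the dimmest read -0.11 with overlapping arms.

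Of the 3 snoRNP genes, FBL and NOP58 fell and NOLC1 did not pass. Fibrillarin (FBL), the methyltransferase of box C/D snoRNPs, read 13.66 and 13.56 with shNTC and 13.05 and 13.09 with shEZH2. It fell by 0.54 (SE 0.07, adjusted p = 0.00315), to 68.6% of control, and by 0.30 after cyclic loess (adjusted p = 0.0188). NOP58, a core protein of the same particles, read 12.81 and 12.95 against 12.56 and 12.41. That was a fall of 0.39 (SE 0.09, adjusted p = 0.02), which missed the threshold after cyclic loess at -0.21 (adjusted p = 0.119). NOLC1, a nucleolar phosphoprotein that binds snoRNPs, read 11.54 and 11.53 against 11.42 and 11.48, a difference of -0.09 (adjusted p = 0.494). Its probe sets did not give 1 size: the other 2 differed by -0.52 and -0.42, each with both shEZH2 arrays below both shNTC arrays, and by -0.48 and -0.46 after cyclic loess.

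Among the nucleolar proteins, PA2G4, a growth regulator that binds ribosomes, had the largest difference of the 29 genes. Its signal was 12.86 and 12.85 with shNTC and 12.03 and 12.05 with shEZH2, so the arms lay far apart relative to their replicates. It fell by 0.82 (SE 0.08, adjusted p = 8.21e-04) and by 0.66 after cyclic loess (adjusted p = 0.00181), and passed in the same direction in all 16 settings run. A second probe set of PA2G4 read 0.44 lower. Nucleolin (NCL) and nucleophosmin (NPM1), abundant RNA-binding proteins of the nucleolus, behaved in another way. NCL read 14.15 and 14.10 against 13.82 and 13.78, a fall of 0.32 (SE 0.06, adjusted p = 0.0115). NPM1 read 14.27 and 14.12 against 13.93 and 13.85, a fall of 0.30 (SE 0.07, adjusted p = 0.0245). After cyclic loess NCL was at -0.02 (adjusted p = 0.822) and NPM1 at 0.02 (adjusted p = 0.846), so the direction of NPM1 turned with the scaling on this probe set. On its other 2 probe sets NPM1 differed by -0.53 and -0.69 as deposited and by -0.24 and -0.42 after cyclic loess.

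Of the 8 genes of RNA polymerase I and small subunit processing, IMP4 and BYSL fell and the other 6 did not pass. IMP4, a protein of the U3 snoRNP that cuts the ribosomal RNA precursor, read 12.69 and 12.67 with shNTC and 12.26 and 12.24 with shEZH2. It fell by 0.43 (SE 0.08, adjusted p = 0.00909) and by 0.30 after cyclic loess (adjusted p = 0.0295). Bystin (BYSL), which acts late in small subunit maturation, read 10.72 and 10.86 against 10.17 and 10.34. It fell by 0.53 under either scaling (SE 0.12 as deposited, adjusted p = 0.0160, and 0.0197 after cyclic loess). POLR1B, a large subunit of RNA polymerase I, read 11.38 and 11.76 against 11.21 and 11.24, a difference of -0.34 (adjusted p = 0.105). Its control arrays were farther apart than those of IMP4. The processome genes UTP20 (-0.31, adjusted p = 0.196), WDR43 (-0.29, adjusted p = 0.119) and RRP9 (-0.18, adjusted p = 0.264) had lower shEZH2 arrays throughout and missed the threshold. RRP12, which helps to export subunits from the nucleus, was at 0.00 (adjusted p = 0.987) and NOL6, another processome gene, at 0.23 (adjusted p = 0.466). NOL6 was the dimmest of the 29, and its shEZH2 arrays read 8.98 and 8.43.

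Of the 7 large subunit genes 5 fell, and the 7 had a median of -0.50 and a range from -0.69 to -0.35. MRTO4, a nucleolar relative of the ribosomal stalk protein P0, read 11.50 and 11.32 with shNTC and 10.83 and 10.63 with shEZH2. It fell by 0.69 (SE 0.11, adjusted p = 0.00688), to 62.2% of control, and by 0.64 after cyclic loess (adjusted p = 0.0108). Its second probe set gave -0.61. WDR12, which forms a complex with PES1 and BOP1 in large subunit maturation, read 12.57 and 12.64 against 11.93 and 11.92. It fell by 0.68 (SE 0.08, adjusted p = 0.00227) and by 0.54 after cyclic loess (adjusted p = 0.00488). Its partner PES1 read 11.07 and 11.02 against 10.70 and 10.55 and fell by 0.42 (SE 0.11, adjusted p = 0.0260), or by 0.40 after cyclic loess (adjusted p = 0.0365). The PES1 call was lost without any 1 of the 4 KARPAS-422 arrays. Of the other genes that fell, all but FBL, PA2G4, WDR12 and NME1 lost their call without at least 1 of these arrays. WDR74, a factor of nucleolar large subunit particles, read 11.51 and 11.47 against 10.99 and 10.92, and its 2 bright probe sets differed by -0.54 (SE 0.09, adjusted p = 0.00784) and -0.64.

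NOP16, a further large subunit factor, read 12.16 and 12.38 against 11.89 and 11.65. It fell by 0.50 (SE 0.12, adjusted p = 0.0212), and after cyclic loess it was at -0.37 (adjusted p = 0.0560). A second bright probe set of NOP16 differed by -0.67 as deposited, without overlap of arms, and by -0.62 after cyclic loess. NOP2, a methyltransferase of large subunit ribosomal RNA, read 11.04 and 11.58 against 10.91 and 11.02, and RRS1, which helps to bring the ribosomal 5S particle into the subunit, read 11.42 and 11.88 against 11.25 and 11.28. Their differences of -0.35 (adjusted p = 0.179) and -0.39 (adjusted p = 0.0930) did not pass. Both had control arrays more than 0.4 apart, which neither PES1 nor WDR12 had.

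DDX21, a nucleolar RNA helicase, and PUS7, a pseudouridine synthase, both fell on the deposited values. DDX21 read 13.91 and 13.86 with shNTC and 13.59 and 13.52 with shEZH2, a fall of 0.33 (SE 0.07, adjusted p = 0.0132) that was -0.04 after cyclic loess (adjusted p = 0.590). A second DDX21 probe set, nearly as bright, differed by -0.48 as deposited, without overlap of arms, and by -0.21 after cyclic loess. PUS7 read 11.75 and 11.92 against 11.43 and 11.40, a fall of 0.42 (SE 0.10, adjusted p = 0.0197) that passed after cyclic loess at -0.34 (adjusted p = 0.0442). PUS7 is among the less bright genes and DDX21 among the bright ones.

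Of the enzymes, the nucleotide synthesis genes CAD and NME1 fell under both scalings and the polyamine genes did not. CAD, which catalyses the first steps of pyrimidine synthesis, read 10.79 and 11.00 with shNTC and 10.22 and 10.39 with shEZH2. It fell by 0.59 (SE 0.12, adjusted p = 0.0133) and by 0.58 after cyclic loess (adjusted p = 0.0173). NME1, a nucleoside diphosphate kinase, read 13.92 and 13.88 against 13.38 and 13.32. It fell by 0.55 (SE 0.07, adjusted p = 0.00227), to 68.2% of control, and by 0.27 after cyclic loess (adjusted p = 0.0142). ODC1, the first enzyme of polyamine synthesis, read 13.98 and 13.82 against 13.63 and 13.48. It fell by 0.35 (SE 0.09, adjusted p = 0.0279), and was at -0.10 after cyclic loess (adjusted p = 0.353). Spermidine synthase (SRM) read 12.21 and 12.23 against 11.98 and 11.98, a difference of -0.24 (adjusted p = 0.0633) that did not pass although the arms were well apart.

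The genes' other probe sets gave a broader view. The 29 genes had 56 probe sets above the filter, of which 43 read lower with shEZH2 in KARPAS-422, 40 of them with no overlap of arms. Of all 25186 single-gene probe sets above the filter, 48% read lower and 29.9% lay below without overlap. Of 13 genes with more than 1, 7 had probe sets of opposite sign: MAX, NCL, POLR1B, RRP12, NOL6, WDR12 and NOP16. For NCL, WDR12 and NOP16 the sets of opposite sign were much dimmer than the one used. With the mean over each gene's probe sets, 15 of 29 genes fell (9.45% of all genes).

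In Pfeiffer, with 1 array per hairpin and no test, most of the genes read slightly lower with shEZH2. This held for 25 of 29 genes, where 45.4% of all genes did so, and for 26 after cyclic loess, where 46.7% did. The median was -0.16, against 0.03 for all genes and -0.03 for the 2752 genes of like brightness. No gene of the 29 passed 0.5 in either direction, where 6.11% of all genes were lower and 11.9% higher by that much (7.39% and 10.2% after cyclic loess, with no gene of the 29 again). For scale, the KARPAS-422 replicates of 1 arm differed by more than 0.5 for 1 of 29 genes with shNTC (NOP2) and 1 with shEZH2 (NOL6). The share of all genes that did so is not given, so these replicate counts have no background. The differences ran from -0.39 in RRP9 (10.32 to 9.93) to 0.18 in MAX (12.40 to 12.58). NOLC1 went from 12.79 to 12.47, BYSL from 10.92 to 10.60 and MRTO4 from 11.44 to 11.12. MYC went from 12.38 to 12.18, a difference of -0.20 that was -0.15 after cyclic loess. MAX, NPM1, SRM and NOL6 were the 4 genes not lower in Pfeiffer. All shEZH2 arrays lay below the shNTC arrays of their own line for 24 of 29 genes, where 20.5% of all genes had this, and for 20 after cyclic loess (20.5%).

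**Figure D4:**
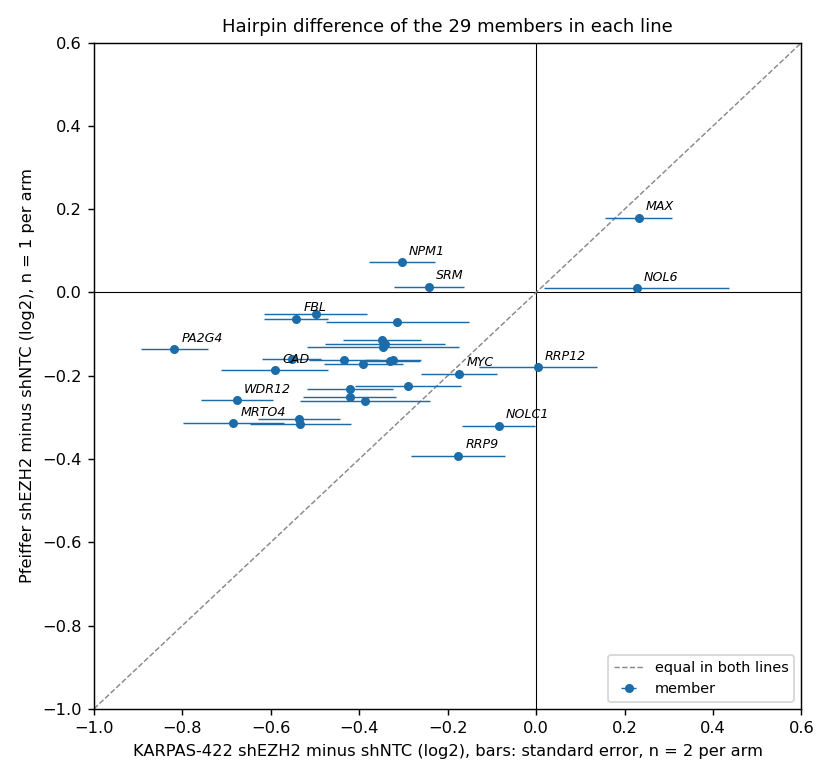
Difference between shEZH2 and shNTC in Pfeiffer (1 array per arm) against that in KARPAS-422 (2 arrays per arm), in log2 units on the deposited values, 1 point per listed gene, with bars for the KARPAS-422 standard error and a dashed line where both lines are equal. Pfeiffer differences lie between -0.39 and 0.18, and KARPAS-422 differences between -0.82 and 0.23.

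Whether the effect differed between the lines was tested as the KARPAS-422 difference minus the Pfeiffer difference. None of the 29 genes passed in limma (1.7% of all genes did), while 5 were more negative in KARPAS-422 at an unadjusted p under 0.05 and 0 more positive. After cyclic loess 0 passed (1.63% of all genes did) and 3 had an unadjusted p under 0.05. The unadjusted counts again have no background. PA2G4 came nearest, at -0.68 (95% interval -0.99 to -0.37, adjusted p = 0.0565). Its second probe set did not show this, with 0.44 lower signal in both lines. The others were FBL at -0.48 (-0.77 to -0.19, adjusted p = 0.121), WDR12 at -0.42 (adjusted p = 0.195), NME1 at -0.39 (adjusted p = 0.154) and NPM1 at -0.38 (adjusted p = 0.204). The KARPAS-422 effect was the more negative one for 23 of 29 genes, where 54.5% of all genes had this. The test assumes that the single Pfeiffer arrays vary like the KARPAS-422 replicates.

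With both lines in 1 fit, which shares its arrays with the comparisons above, 5 of 29 genes fell and 0 rose (limma), where 2.46% of all genes fell and 3.76% rose. They were MRTO4 (-0.56, adjusted p = 0.0418), PA2G4 (-0.59, adjusted p = 0.0494), WDR12 (-0.54, adjusted p = 0.0370), WDR74 (-0.46, adjusted p = 0.0408) and NME1 (-0.42, adjusted p = 0.0474). At an unadjusted p under 0.05, 19 were lower and 1 higher, again with no share of all genes to set beside them. After cyclic loess WDR12, WDR74 and MRTO4 fell (1.85% of all genes) and MAX rose by 0.36 (adjusted p = 0.0379, 3.7% of all genes). None passed in the fit without a filter on dim genes, where 0.501% of all genes fell. None of these calls held when any 1 of the 4 KARPAS-422 arrays was left out. Almost no gene of all tested passed in those fits either, so the loss is not particular to these genes.

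The control arrays also give each gene's level in the 2 lines. With shNTC, 7 of 29 genes were higher in KARPAS-422 than in Pfeiffer and 1 was lower (limma), where 21.7% of all genes were higher and 22.5% lower. The share that was higher is thus close to that of all genes. ODC1 had the largest difference, with 13.98 and 13.82 in KARPAS-422 against 12.55 in Pfeiffer, or 2.55-fold (1.35, SE 0.11, adjusted p = 7.03e-05). IMP4 was 2.26-fold higher (1.18, adjusted p = 7.89e-05) and MYC 1.67-fold higher (0.74, SE 0.11, adjusted p = 0.00113). WDR12 (0.57), PA2G4 (0.53), MAX (0.49) and FBL (0.36, adjusted p = 0.0144) made up the rest. NOLC1 was the exception, with 11.54 and 11.53 against 12.79 in Pfeiffer (-1.26, SE 0.10, adjusted p = 7.35e-05). The IMP4 and ODC1 levels of KARPAS-422 with shEZH2 stayed above both Pfeiffer arrays. PA2G4 and WDR12 were higher in KARPAS-422 with shNTC. With shEZH2 they read 12.03 to 12.05 and 11.92 to 11.93 there, below the 12.33 and 12.03 of Pfeiffer with shNTC. Pfeiffer with shEZH2 read 12.20 and 11.77, so with that hairpin in both lines PA2G4 was lower in KARPAS-422 and WDR12 was higher. The higher PA2G4 level with shNTC rests on 1 probe set. On its other one KARPAS-422 with shNTC read 10.96 and 11.18 against 11.22 in Pfeiffer, a difference of -0.154 that did not pass. After cyclic loess 6 were higher (19.8% of all genes) and 3 lower (24.2%): FBL missed the threshold (adjusted p = 0.0531), and RRS1 and NME1 joined NOLC1. Median centring, which moved the median of all genes by 0.20, gave 14 higher and 1 lower (29.6% and 18.1% of all genes).

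Other genes of the same processes were counted in lists drawn up by function. RNA polymerase I machinery had 6 of 21 genes lower and 0 higher in KARPAS-422 (limma), and 4 lower and 1 higher after cyclic loess. Its largest falls were in POLR1E, a subunit of the polymerase (0.70, adjusted p = 0.0117), and UBTF, a transcription factor of ribosomal DNA (0.69, adjusted p = 0.0271). Other small subunit processome genes had 23 of 47 lower and 1 higher, and 18 and 2 after cyclic loess. UTP11 fell by 0.95 (adjusted p = 0.00145) and TBL3 by 0.86 (adjusted p = 0.00408), while UTP23 rose by 0.45 (adjusted p = 0.0196). Other large subunit assembly genes had 18 of 48 lower and 0 higher, and 13 and 0 after cyclic loess. The largest falls were in NLE1 (1.21, adjusted p = 0.00123) and the helicase gene DDX51 (1.1, adjusted p = 0.00262), both larger than that of PA2G4. The shares lower in these lists were 28.6%, 48.9% and 37.5%, and their medians were -0.22, -0.33 and -0.30. The first share is close to the 27.9% of the 2752 genes between the quartiles of the 29 genes' brightness. That range was not matched to the RNA polymerase I list, whose mean signals run from 8.99 to 13.13.

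Of 13 nuclear exosome genes, which trim and degrade ribosomal RNA precursors, 8 fell and 0 rose, and 7 fell after cyclic loess. EXOSC8 fell by 0.72 (adjusted p = 0.0125) and the helicase MTREX by 0.60 (adjusted p = 0.00447). Other snoRNP genes had 2 of 12 lower (16.7%, near the 12.3% of all genes), SHQ1 (-0.44, adjusted p = 0.0429) and NOP10 (-0.33, adjusted p = 0.0224), and 0 after cyclic loess. Cytosolic ribosomal protein genes, the products that these factors assemble, had 22 of 53 lower (41.5%) and 0 higher with a median of -0.26. Many of them are brighter than log2 13, where 49.9% of tested genes were lower, also with a median of -0.26. After cyclic loess 0 were lower and 5 higher, with a median of 0.08, so the direction of this list turned with the scaling. The 449 tested genes above log2 13 then had 31 lower and 62 higher, with a median of 0.02. Ribosomal protein genes have near-identical pseudogene copies, which their probe sets may also read. RPL3 went from a fall of 0.49 (adjusted p = 0.00714) to -0.16 (adjusted p = 0.116), and RPS18 from a fall of 0.36 (adjusted p = 0.0330) to -0.05 (adjusted p = 0.684).

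Metabolic and growth lists around the enzymes were also counted. Nucleotide synthesis genes had 15 of 23 lower and 0 higher, with a median of -0.39, and 11 lower after cyclic loess. SHMT2, which supplies one-carbon units in mitochondria, fell by 0.96 (adjusted p = 0.0131), and GMPS, which makes GMP, fell by 0.94 (adjusted p = 8.23e-04). Other polyamine genes had 2 of 13 lower (15.4%, near the 12.3% of all genes), EIF5A (-0.71, adjusted p = 0.00223) and SMS (-0.39, adjusted p = 0.0126). After cyclic loess 2 were lower and SMS was not among them (-0.25, adjusted p = 0.0594). SAT1, which acetylates polyamines for breakdown and export, rose by 0.70 (adjusted p = 0.00181). Translation factors had 12 of 25 lower and 0 higher, with EIF4B at -1.02 (adjusted p = 5.75e-04) and EIF2B3 at -0.75 (adjusted p = 0.00715), and 9 lower and 2 higher after cyclic loess. Other classic MYC targets had 29 of 36 lower and 0 higher, with RCC1 at -1.07 (adjusted p = 7.30e-04) and FKBP4 at -0.92 (adjusted p = 0.00264), and 15 lower after cyclic loess.

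The MYC and MAX network, the regulators rather than the targets, was mixed. It had 5 of 17 genes lower (29.4%) and 2 higher, and 5 and 1 after cyclic loess. Of all tested genes 12.3% were lower and 13.1% higher as deposited. Of the 2752 genes between the quartiles of the 29 genes' brightness, 27.9% were lower. FBXW7, part of a ubiquitin ligase that marks MYC for degradation, read 8.86 and 8.85 with shNTC and 9.71 and 9.86 with shEZH2, a rise of 0.93 (SE 0.14, adjusted p = 0.00436). It read 8.79 against 9.26 in Pfeiffer. MXD3, which pairs with MAX in place of MYC, rose by 0.69 (adjusted p = 0.0444) and missed the threshold after cyclic loess (0.55, adjusted p = 0.0982). SKP2, a ubiquitin ligase subunit, fell by 0.82 (adjusted p = 0.00906), and WDR5, a chromatin cofactor of MYC, fell by 0.59 (adjusted p = 0.0146). In Pfeiffer the median differences of the wider lists were small, from -0.21 for nucleotide synthesis to 0.08 for ribosomal proteins.

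**Figure D5:**
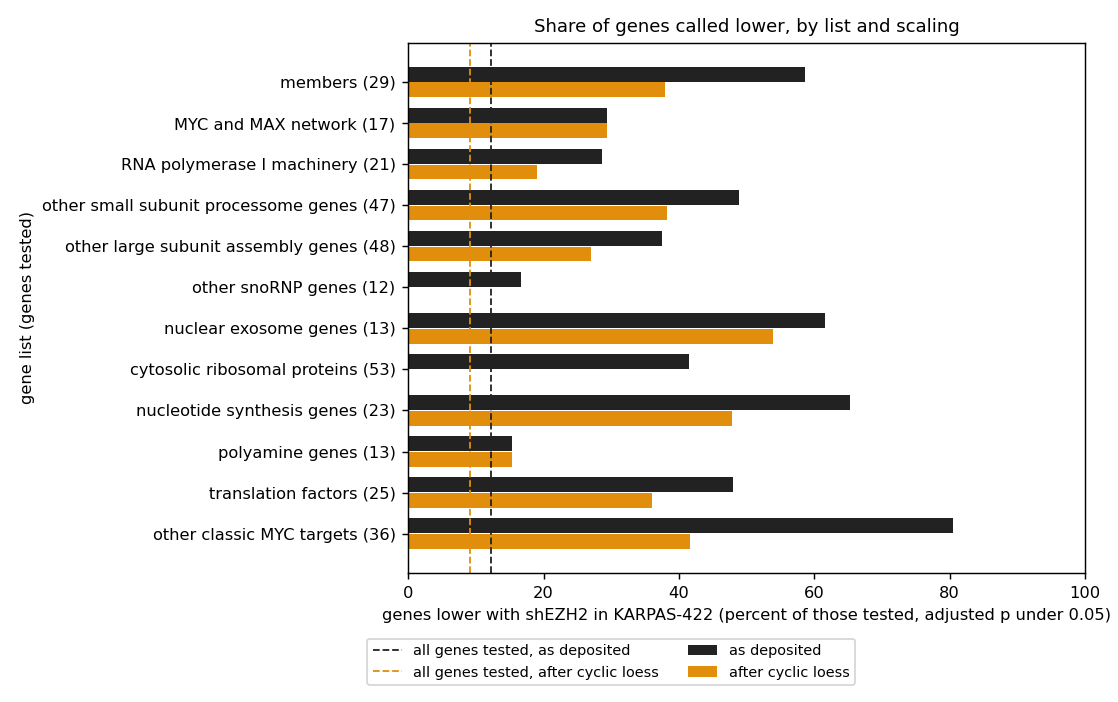
Percent of the measured genes of each list that fell with shEZH2 in KARPAS-422 at a limma adjusted p under 0.05, on the deposited values (black) and after cyclic loess (orange), with the number of genes measured in brackets and dashed lines at the share of all genes tested (12.3% and 9.16%). The ribosomal protein bar is present on the deposited values (22 of 53 genes) and at 0 after cyclic loess.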

How the data were processed

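RNA was measured on 6 arrays, 1 per sample. The deposited values are log2 signals from the authors' MAS5 step, per the submitters' processing notes, which give no version. The log base and target are not given in the sources used here: 2 to the power of the values has a 2% trimmed mean of 500.0 on every array, so they were read as log2. Probe sets annotated to 1 gene (41091 of 54675) were kept where at least 2 of 6 arrays were above the median of all values, and the one with the highest mean stood for its gene. Groups came from the sample titles.

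limma 3.58.1 in R 4.3.3 was used (two-sided tests by lmFit and trended eBayes, Benjamini-Hochberg over 13036 genes, threshold 0.05), with a model of 4 groups for KARPAS-422, the lines and their difference (2 residual and 5.24 prior degrees of freedom), and line plus hairpin for both lines. Each adjusted p is limma's. Every fit was repeated after cyclic loess over all probe sets and under the alternatives in the closing section. The code was tested on simulated data. The number of arrays limits the precision, and scan dates and detection calls were not used.

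The list members, the other lists and the tests were chosen with earlier results of these data known. All members may be named. EZH2 is named, and for each other list up to 2 called genes per direction with the largest KARPAS-422 difference. E-box stretches follow the rule of up to 4 genes with the word that fell under both scalings, by the largest fall on the deposited values, and those of NOL6 and RRP9 were added after their values were seen.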

Additional observations from a re-analysis of the deposited data

How the results depend on the processing

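Of 29 genes (26 without _x_at and _s_at probe sets), 17 fell in KARPAS-422 on the deposited values, 11 after cyclic loess, 1 without the intensity trend and 4 to 15 when 1 array was left out. The count of genes that rose there, 0, was 1 after cyclic loess (12.2% of all genes) and after quantile normalization (11.3%). It was also 1 with all 6 arrays required above the median (16.7%) and with a replicate block (14.2%). In that fit, with KARPAS-422 arrays only, 18 fell (14.4% of all genes). Over both lines 5 fell. The count was 3 after cyclic loess, 14 after median centring, 11 with all 6 arrays above the median, and 0 without a filter, without the trend, with a replicate block of 3 levels, or without any 1 array (0 to 0, where at most 0.0153% of all genes fell). Of all genes 2.46% fell over both lines as deposited, 1.85% after cyclic loess, 7.89% after median centring and 6.66% with all 6 arrays above the median. The 0 listed genes that rose over both lines became 1 after cyclic loess or quantile normalization (3.7% and 2.96% of all genes). For the difference between lines the 0 became 1 gene, more negative in KARPAS-422, with all 6 arrays above the median (0.788% of all genes). Between lines with shNTC, 1 gene was lower in KARPAS-422, where 22.5% of all genes were. It became 3 after cyclic loess (24.2% of all genes) and 2 after quantile normalization (21.6%). It was 2 with all 6 arrays above the median (21.1%) and 4 over both hairpins (30.2%). The 7 higher (21.7% of all genes) became 14 after median centring (29.6%). In Pfeiffer the 0 genes lower by more than 0.5 became 1 after median centring and 2 without _x_at and _s_at probe sets. The share of all genes in these Pfeiffer settings is not given. Among the calls on the deposited values, directions turned for NPM1 in KARPAS-422 after cyclic loess (0.018). They also turned for NCL there without _x_at and _s_at probe sets (0.061), and for PA2G4 between lines without those probe sets (-0.154). The latter 2 were then read by a dimmer probe set. Differences that were not called turned too, among them 3 in KARPAS-422 after cyclic loess. These were MYC (-0.174 to 0.018), NOLC1 (-0.085 to 0.025) and RRP12 (0.004 to -0.078). Otherwise the cause was not tested. Deviations of same-numbered KARPAS-422 arrays from their arm means correlated at 0.00651 across all genes and 0.338 across the 29 listed ones. No label ties the numbers to a shared source, so the replicate numbers were not taken to pair the arrays.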
